A study of Mus musculus with 22 samples.

Results

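The 37 genes described here encode the enzymes of the tricarboxylic acid (TCA) cycle, the machinery that brings pyruvate into the cycle, and the enzymes and carriers that supply acetyl-CoA outside it. They were chosen by name, by their known roles, with earlier results of these data known, and no measured value was used as a criterion. All 37 were found among the 16556 genes of the deposited count table, and all 37 passed the filter on low counts that left 15064 genes to be tested. Messenger RNA of kidney cortex from male C57BL/6J mice was read near its 3′ end by tag sequencing in 22 libraries. In Pt-CrAT mice a Cre recombinase under the Ggt promoter, which is active in proximal tubular cells, deletes Crat, and fl/fl mice are their floxed counterparts. Crat encodes carnitine acetyltransferase, a mitochondrial enzyme that exchanges acetyl between coenzyme A and carnitine. There were 6 groups: Pt-CrAT and fl/fl at 12 months, titled LFD (3 and 3 libraries), at 15 months, titled chow (3 and 3), and at 24 months, titled chow (5 and 5). The labels do not spell out LFD, and it changes together with age, so levels at 12 months were not tested against those of the older libraries. Only the genotype difference was compared among the 3 settings, in a test given below. Cortex holds many cell types besides the proximal tubule, so fewer cells of a type and less RNA per cell cannot be told apart in these values.

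Pyruvate enters the mitochondrion through a carrier made of the Mpc1 and Mpc2 proteins and is turned into acetyl-CoA by the pyruvate dehydrogenase complex, which kinases switch off and phosphatases switch on. Citrate synthase joins acetyl-CoA to oxaloacetate, and the cycle then releases carbon dioxide and passes electrons to the respiratory chain. The proximal tubule is rich in mitochondria and burns mostly fatty acids, whose acetyl-CoA meets that from pyruvate in the pool on which carnitine acetyltransferase also draws.

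Crat was examined as a check of the labels. At 12 months it stood at 42.4, 81.1 and 64.2 CPM (read counts scaled to library size, with TMM factors) in Pt-CrAT libraries and at 54.0, 84.6 and 98.1 CPM in fl/fl libraries, with groups that overlap (log2 fold change -0.33, SE 0.27, adjusted p = 0.41). At 24 months it ran from 28.4 to 38.9 CPM in Pt-CrAT, below the 43.5 to 112 CPM of fl/fl (log2 fold change -1.04, SE 0.21, adjusted p = 0.177). At 15 months the order was opposite to the labels, with 63.1, 72.6 and 71.8 CPM in libraries labelled Pt-CrAT and 41.5, 34.3 and 60.0 CPM in libraries labelled fl/fl (log2 fold change 0.61, SE 0.27, adjusted p = 0.581). The 15-month libraries are therefore called by their labels throughout. At 12 months Crat did not separate the labelled genotypes either. Some other libraries stood apart. CrAT24Mchow123 and CrAT24Mchow136 held 4565 and 2853 CPM of Kap, an androgen-dependent transcript of the proximal tubule, where no other 24-month library held less than 18930 CPM. CrAT12MLFD345 was sequenced to 53157575 counts, against 12175804 to 17447367 in the other libraries. In a fit that gives each library a quality weight, Wt12MLFD326 had the lowest weight of the 22 (0.187). Marker genes of the proximal tubule segments S1 and S2 summed to between 11630 and 30300 CPM per library, and none of the 16 was at 0 throughout.

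Promoter sequences, the 250 bases before the RefSeq start on GRCm38.p6, were matched for 35 of the 37 genes. There were 3 motifs looked for on both strands: GGGCGG, the GC box bound by Sp1, CCAAT, the box bound by NF-Y, and the core of the site of nuclear respiratory factor 1 (NRF1), a regulator of many nuclear genes for mitochondrial proteins. The GC box was in the promoters of 25 of the 35 genes (71.4%), against 35.4% of all 27025 genes with a promoter sequence. The CCAAT box was in 23 (65.7%), against 37.5% of all. The NRF1 core was in 4 (11.4%), those of Sdha, Sdhd, Slc33a1 and Sucla2, against 4.23% of all. A gene was counted when any of its promoters held the motif. The 27025 genes outnumber the 16556 of the count table, so this background also holds genes not detected here. The GC box and the NRF1 core are themselves rich in G and C, and the motifs can overlap with each other. Of these, 4 are shown because their genes carry the results below: Idh3g rose and Cs and Slc33a1 fell in Pt-CrAT at 12 months, and Mdh2 was lower at 24 than at 15 months in Pt-CrAT. Each runs 5′ to 3′ along its gene, with GC boxes, CCAAT boxes and NRF1 cores in capitals.
Idh3g promoter, chrX:73786898-73787147, minus strand: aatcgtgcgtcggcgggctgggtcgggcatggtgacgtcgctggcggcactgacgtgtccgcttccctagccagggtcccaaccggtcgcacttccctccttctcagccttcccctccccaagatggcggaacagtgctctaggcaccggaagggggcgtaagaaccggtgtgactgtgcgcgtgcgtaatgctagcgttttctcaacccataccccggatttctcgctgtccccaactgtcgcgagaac
Cs promoter, chr10:128337477-128337726, plus strand: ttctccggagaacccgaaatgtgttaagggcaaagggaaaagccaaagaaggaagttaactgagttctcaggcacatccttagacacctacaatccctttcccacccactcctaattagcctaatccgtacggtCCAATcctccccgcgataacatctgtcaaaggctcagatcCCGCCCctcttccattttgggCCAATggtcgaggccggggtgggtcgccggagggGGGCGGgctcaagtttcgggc
Slc33a1 promoter, chr3:63964734-63964983, minus strand: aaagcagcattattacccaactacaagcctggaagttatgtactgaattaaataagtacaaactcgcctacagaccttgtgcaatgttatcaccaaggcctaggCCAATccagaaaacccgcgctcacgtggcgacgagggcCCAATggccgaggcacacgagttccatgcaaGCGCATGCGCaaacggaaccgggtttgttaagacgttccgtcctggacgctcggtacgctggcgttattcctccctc
Mdh2 promoter, chr5:135778399-135778648, plus strand: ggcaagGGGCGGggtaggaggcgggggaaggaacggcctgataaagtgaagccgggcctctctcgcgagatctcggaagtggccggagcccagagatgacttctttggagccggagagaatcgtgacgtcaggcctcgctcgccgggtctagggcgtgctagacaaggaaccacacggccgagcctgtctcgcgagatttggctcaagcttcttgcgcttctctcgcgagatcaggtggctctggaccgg
The Cs window holds 2 GC boxes and 2 CCAAT boxes, the Slc33a1 window 2 CCAAT boxes and an NRF1 core that reads the same on both strands, the Mdh2 window 1 GC box, and the Idh3g window none of the 3 motifs. In the GENCODE M21 annotation the Mdh2 gene starts at 135778480, so its window, placed by the RefSeq start, lies partly inside the gene. The Slc33a1 window also runs into its gene, which ends at 63964768 there. A match is a description of these letters and no evidence of binding.

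The first comparison asked how the pathway differed between Pt-CrAT and fl/fl at 12 months. Of the 37 genes, 8 fell and 1 rose in Pt-CrAT (edgeR's quasi-likelihood test, Benjamini-Hochberg adjusted p under 0.05). Over all genes tested 16.4% passed, 7.95% lower and 8.41% higher. The genes that fell were Cs, Idh1, Idh3a, Dld, Dlat, Pdhb, Fh1 and Slc33a1, and the gene that rose was Idh3g. The median log2 fold change of the 37 was -0.20, with 23 lower and 14 higher values, against 0.00 over all genes tested. The groups did not overlap for 12 genes with lower values, against 13.8% of all genes, and for 4 with higher values, against 16.3%.

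**Figure D1:**
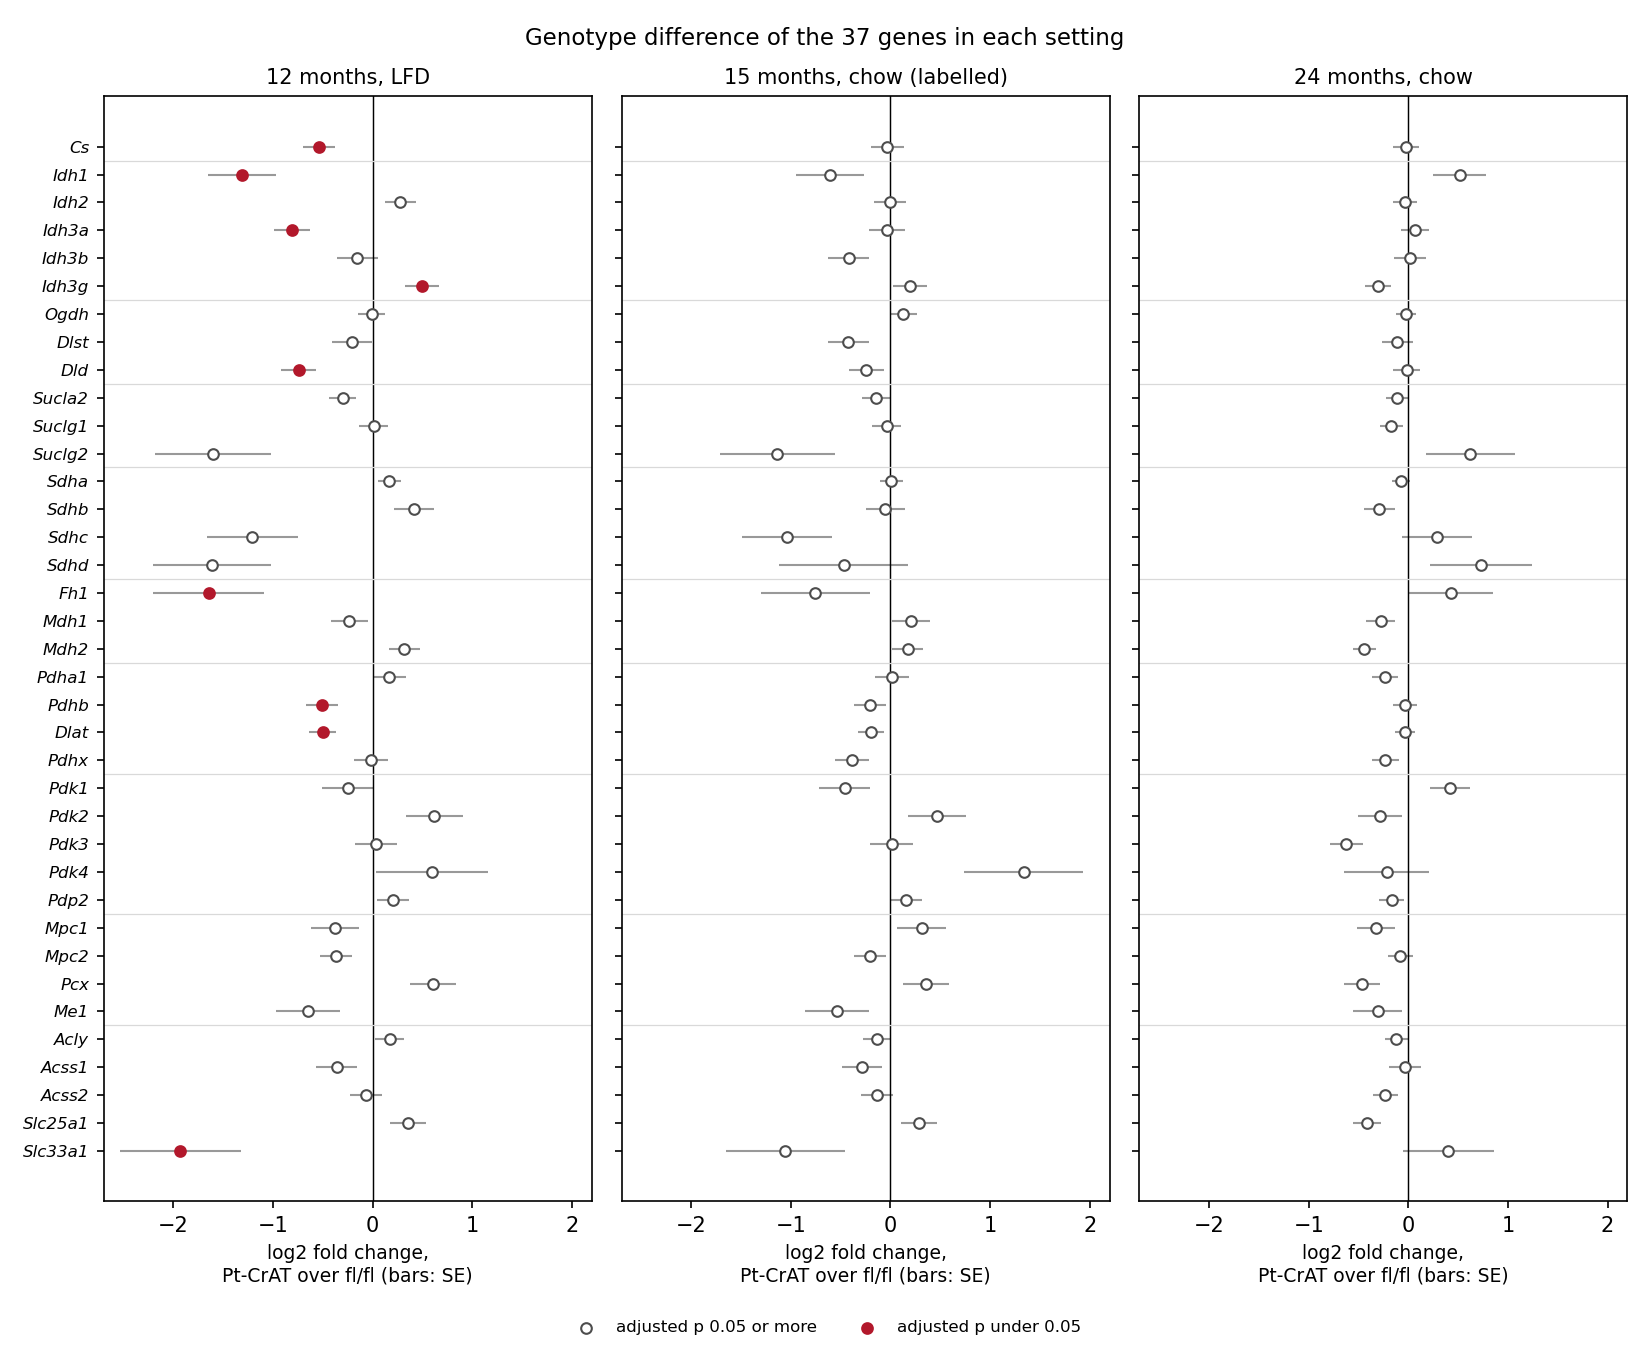
Log2 fold change (horizontal axis, Pt-CrAT over fl/fl, with SE bars) of each of the 37 genes, ordered by role from citrate synthesis (top) to acetyl-CoA supply (bottom), in the 3 settings. Filled points passed at an adjusted p of 0.05: there are 9 at 12 months, from -1.93 for Slc33a1 to 0.50 for Idh3g, and none at 15 months, where the direction is that of the labels, or at 24 months.

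At the entry to the cycle, Cs, which encodes citrate synthase (ENSMUSG00000005683; GRCm38 chromosome 10, 128337734 to 128362479), fell. It stood at 47.8, 47.5 and 66.5 CPM in Pt-CrAT and at 92.4, 74.0 and 69.3 CPM in fl/fl (log2 fold change -0.54, SE 0.16, adjusted p = 0.0319). All 3 Pt-CrAT libraries lay below all 3 fl/fl libraries, with CrAT12MLFD345 closest to them.

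The 5 isocitrate dehydrogenase genes went in different directions. Idh3a, the catalytic alpha subunit of the NAD-dependent mitochondrial enzyme (ENSMUSG00000032279; chromosome 9, 54586334 to 54604661), had the smallest p of the 37 genes. It stood at 24.2, 28.2 and 36.0 CPM in Pt-CrAT and at 72.1, 40.01 and 43.8 CPM in fl/fl (log2 fold change -0.81, SE 0.18, adjusted p = 0.00947). The groups did not overlap, and Wt12MLFD326 was far above the other fl/fl libraries. Idh3g, the gamma subunit of the same enzyme (ENSMUSG00000002010; chromosome X, 73778963 to 73786897), rose. It stood at 678, 651 and 532 CPM in Pt-CrAT and at 361, 439 and 519 CPM in fl/fl (log2 fold change 0.50, SE 0.17, adjusted p = 0.0471). Here Wt12MLFD326 was the lowest of the 6 and the nearest libraries of each group almost met. Idh1, the NADP-dependent enzyme of the cytosol (ENSMUSG00000025950; chromosome 1, 65158616 to 65186500), fell to 122, 162 and 216 CPM in Pt-CrAT, against 656, 322 and 266 CPM in fl/fl (log2 fold change -1.31, SE 0.34, adjusted p = 0.0183). The groups did not overlap, and the highest value was again that of Wt12MLFD326. Idh3b, the beta subunit (-0.15), and Idh2, the NADP-dependent enzyme of the mitochondrion (0.28), did not pass. The last 500 bases of Idh3b overlap Nop56 on the opposite strand, and the strand setting of the counting is not given in the sources used here.

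In the dehydrogenase complexes 3 of 7 genes fell. Dld, the dihydrolipoamide dehydrogenase that serves the pyruvate and the 2-oxoglutarate complex alike (ENSMUSG00000020664; chromosome 12, 31331277 to 31351453), fell to 59.0, 54.4 and 81.7 CPM in Pt-CrAT, against 127, 103 and 98.3 CPM in fl/fl (log2 fold change -0.74, SE 0.18, adjusted p = 0.0126). Dlat, the acetyltransferase core of the pyruvate complex (ENSMUSG00000000168; chromosome 9, 50634633 to 50659780), fell to 40.8, 43.7 and 49.0 CPM in Pt-CrAT, against 76.9, 53.6 and 59.0 CPM in fl/fl (log2 fold change -0.50, SE 0.13, adjusted p = 0.0173). Pdhb, the beta subunit of its decarboxylase (ENSMUSG00000021748; chromosome 14, 8165996 to 8173025), fell to 57.3, 57.1 and 62.3 CPM in Pt-CrAT, against 111, 74.5 and 66.6 CPM in fl/fl (log2 fold change -0.51, SE 0.16, adjusted p = 0.0344). For all 3 genes the groups did not overlap and Wt12MLFD326 was the highest of the 6 libraries. The other subunits did not pass: Pdha1, the decarboxylase alpha subunit, stood at 0.17, Pdhx, which anchors Dld in the complex, at -0.01, and Ogdh and Dlst, the decarboxylase and succinyltransferase of the 2-oxoglutarate complex, at -0.01 and -0.20 on the log2 scale. Tags of Pdha1 end where Map3k15 is annotated on the opposite strand.

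In the later steps of the cycle 1 of 10 genes passed. Fh1, which encodes fumarase (ENSMUSG00000026526; chromosome 1, 175600374 to 175625635), fell to 21.5, 18.8 and 62.4 CPM in Pt-CrAT, against 178, 49.8 and 98.7 CPM in fl/fl (log2 fold change -1.65, SE 0.56, adjusted p = 0.0496). Its groups overlap, since CrAT12MLFD345 lay above Wt12MLFD327. The succinate dehydrogenase membrane anchors Sdhc and Sdhd and the GDP-forming succinyl-CoA ligase subunit Suclg2 had values of similar size that did not pass (-1.21, -1.61 and -1.60 on the log2 scale; adjusted p = 0.0731, 0.0654 and 0.0641). Sdhd stood at 1.28, 1.73 and 8.19 CPM in Pt-CrAT and at 22.3, 3.27 and 12.0 CPM in fl/fl, so that the libraries of each genotype differed among themselves more than most. The catalytic subunits of succinate dehydrogenase, Sdha (0.17) and Sdhb (0.42), had higher values, as did the mitochondrial malate dehydrogenase Mdh2 (0.32). Sucla2 (-0.30), Suclg1 (0.01) and the cytosolic malate dehydrogenase Mdh1 (-0.23) complete this set, and none of these 6 passed.

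No kinase, phosphatase or pyruvate carrier passed at 12 months. The 4 kinases that switch the pyruvate complex off stood at -0.25 (Pdk1), 0.62 (Pdk2), 0.03 (Pdk3) and 0.60 (Pdk4) on the log2 scale, with Pdk4 under 1 CPM in all 6 libraries. The phosphatase Pdp2 stood at 0.21. The carrier genes Mpc1 and Mpc2 stood at -0.38 and -0.37, the cytosolic malic enzyme Me1 at -0.64, and Pcx, the pyruvate carboxylase that refills oxaloacetate, at 0.61 (SE 0.23, adjusted p = 0.068).

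Of the 5 genes of acetyl-CoA supply, 1 fell. Slc33a1, the acetyl-CoA transporter of the endoplasmic reticulum (ENSMUSG00000027822; chromosome 3, 63933507 to 63964768), stood at 13.2, 15.4 and 39.6 CPM in Pt-CrAT and at 178, 41.2 and 47.2 CPM in fl/fl (log2 fold change -1.93, SE 0.61, adjusted p = 0.0379). The groups were separate by a small gap, and the mean of fl/fl was carried by Wt12MLFD326. The mitochondrial citrate carrier Slc25a1 (0.35), ATP-citrate lyase Acly (0.17), and the acetyl-CoA synthetases Acss1 of the mitochondrion (-0.36) and Acss2 of the cytosol (-0.07) did not pass. The last 500 bases of Acss2 overlap Gss on the opposite strand.

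**Figure D2:**
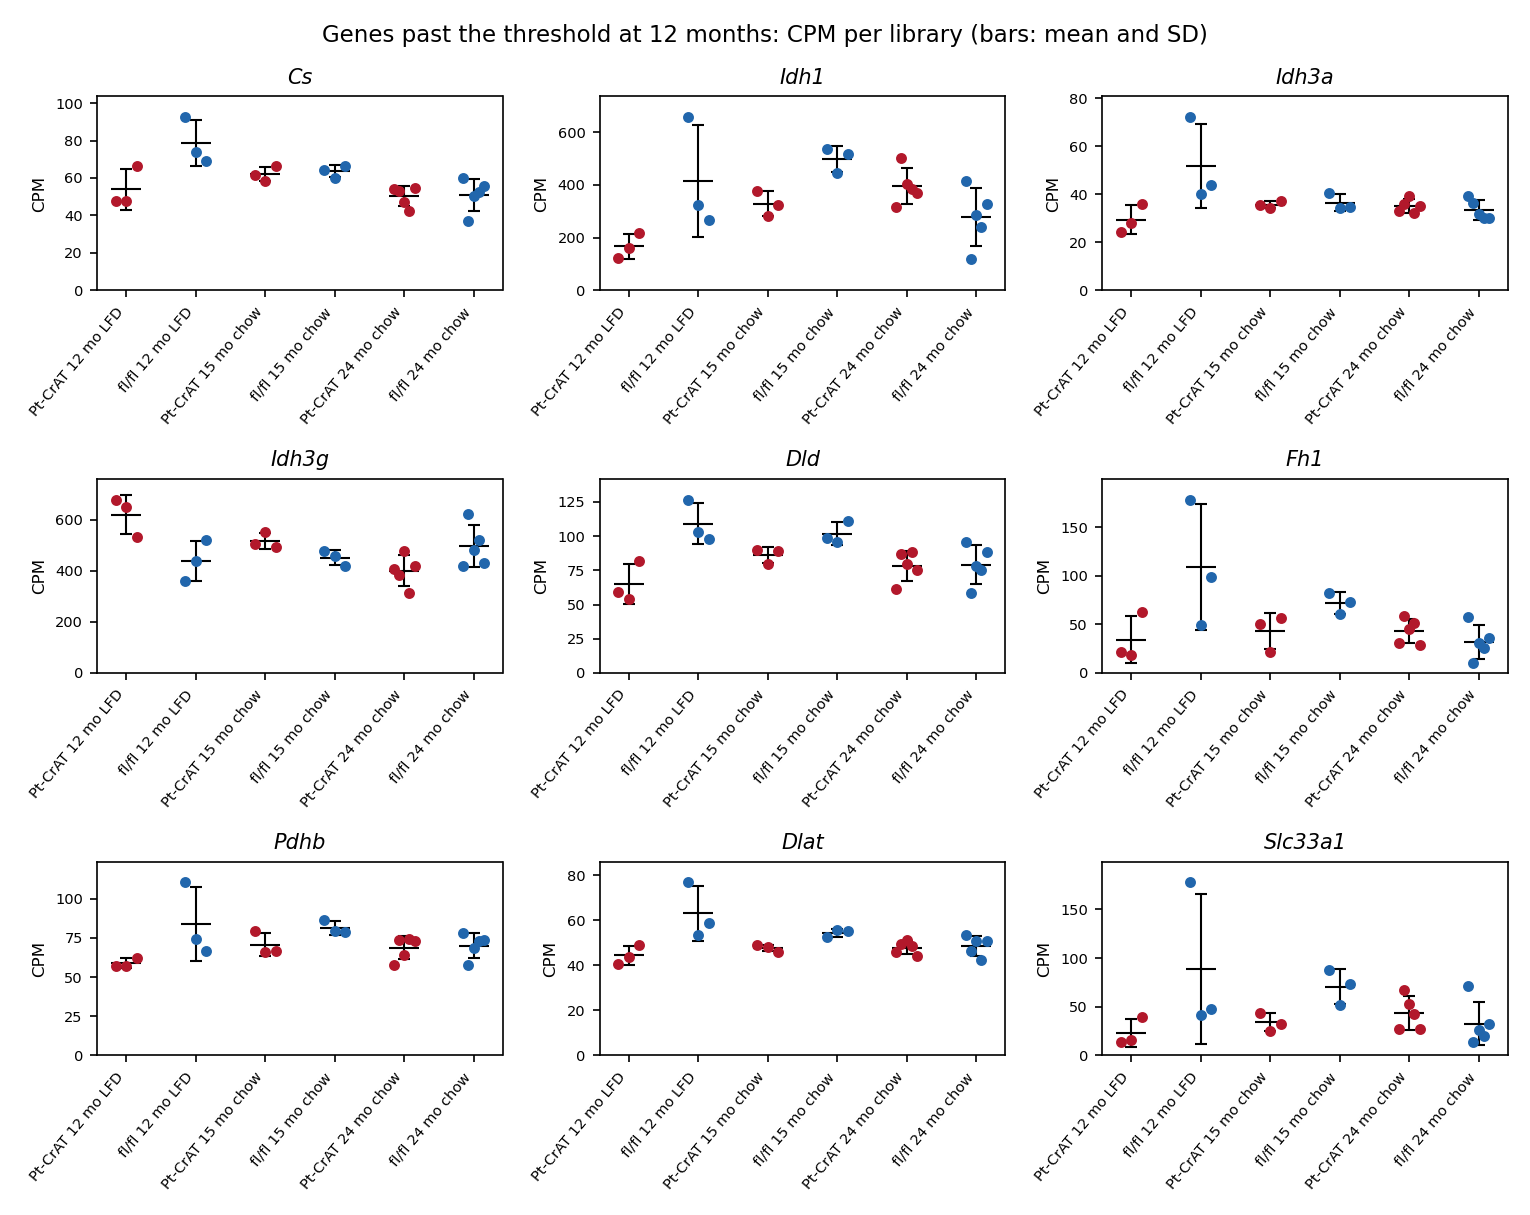
CPM (vertical axis, from 0) of the 9 genes that passed at 12 months in each of the 22 libraries, by group, with Pt-CrAT in red and fl/fl in blue; black bars give the mean and SD. At 12 months 1 fl/fl library, Wt12MLFD326, is the highest point of all 8 genes that fell and the lowest of Idh3g, and at 24 months the 2 genotypes overlap for all 9.

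The calls at 12 months rested on few libraries. None of the 37 genes passed without CrAT12MLFD328, without CrAT12MLFD337 or without Wt12MLFD326, while 13 passed without CrAT12MLFD345 and 10 without either of the other fl/fl libraries. The adjusted p of the 9 genes then ran from 0.0905 to 0.207, from 0.0524 to 0.197 and from 0.0689 to 0.398 in these 3 cases. Without Wt12MLFD326 the log2 fold change of Slc33a1 was -0.92, that of Pdhb -0.26, that of Idh1 -0.82, that of Idh3a -0.50 and that of Fh1 -1.09. Idh3g also lost its call without Wt12MLFD327 (adjusted p = 0.0697) and Fh1 without Wt12MLFD368 (0.0643). Calls over all genes moved too, from 53 to 3513 with 1 of the 6 libraries from 12 months left out, against 2464 in the main fit. When the fit held just the 6 libraries from 12 months, 0 of the 37 passed in edgeR, with adjusted p from 0.158 to 0.186 for the 9 genes. In the fit of all 22 libraries 18 of the 37 had an unadjusted p under 0.05 (48.6%), against 33.7% of all genes, DESeq2 called 12 and limma-voom 6.

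Base composition moved with the difference at 12 months. The tags come from transcript ends, and over 13162 genes sorted into 5 bins of nearly equal size by the GC content of the last 500 bases, the median log2 fold change was -0.22, -0.16, -0.04, 0.08 and 0.23 from the lowest to the highest GC. Spearman's rho between GC content and log2 fold change was 0.29 across these genes and 0.48 across the 37, a description with no test, since the genes share the same 6 libraries. Slc33a1 has 26.4% GC there, Dld 35.2%, Idh1 39.4% and Fh1 42.4%, while Idh3g has 49.8%, Pcx 55.4% and Slc25a1 57.8%. Idh3a also fell, with 49.6% GC. Within libraries, the bin of highest GC lay above that of lowest GC by 0.54, 0.61 and 0.29 log2 units in CrAT12MLFD328, CrAT12MLFD337 and CrAT12MLFD345, and by -0.44, 0.22 and 0.20 in Wt12MLFD326, Wt12MLFD327 and Wt12MLFD368. With a GC term fitted in each library, 7 genes passed, all lower, and Pdhb (adjusted p = 0.066) and Idh3g (0.0682) did not. This alternative was added after the data were seen.

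**Figure D3:**
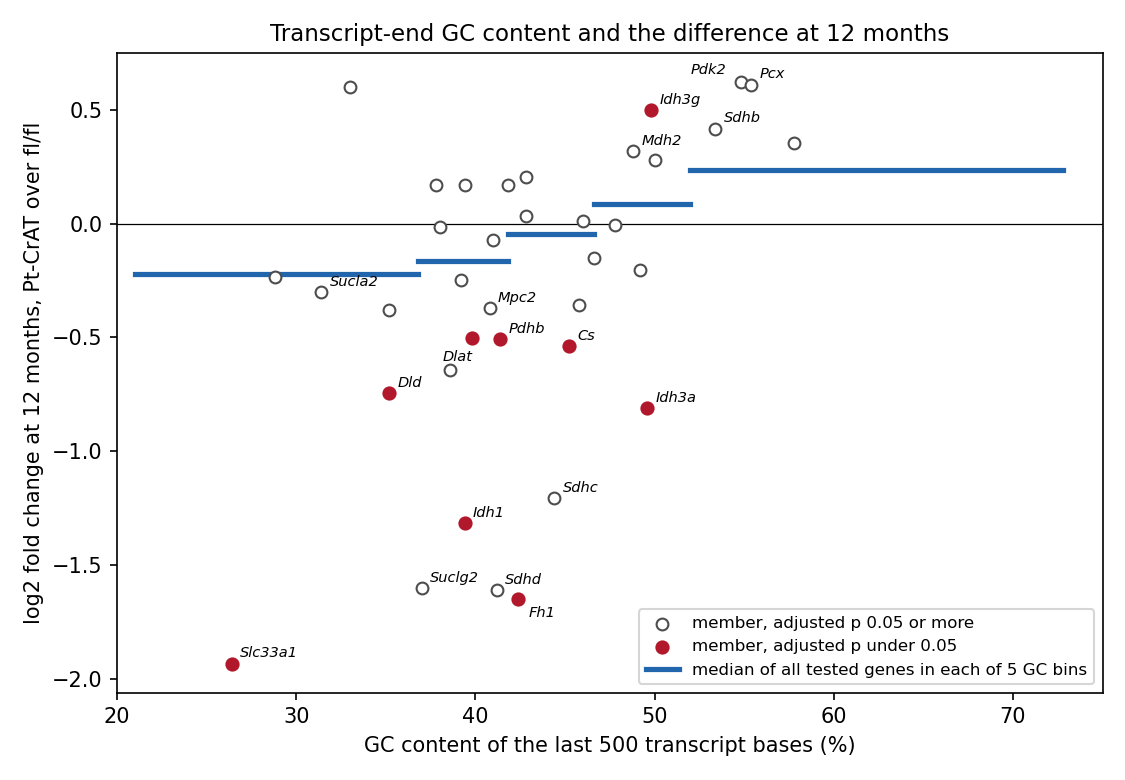
GC content of the last 500 transcript bases (horizontal axis, %) against the log2 fold change at 12 months (vertical axis, Pt-CrAT over fl/fl) for the 37 genes; filled points passed at an adjusted p of 0.05, and blue lines give the median of all tested genes in each of 5 bins of GC content. The blue medians climb from -0.22 to 0.23, and the 8 genes that fell all lie below them.

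Markers of other cells moved in the same libraries. Of 9 adipocyte genes tested, 7 rose at 12 months, and their summed level was 354 to 896 CPM in Pt-CrAT against 135.4 to 281 CPM in fl/fl, with none at 0 in every library. Of 16 proximal tubule S1 and S2 markers, 5 fell and 0 rose, while 8 of the 16 had higher values and 8 lower (median log2 fold change -0.10), with sums of 25610 to 27190 CPM in Pt-CrAT and 20200 to 30300 CPM in fl/fl. Without CrAT12MLFD328, CrAT12MLFD337, CrAT12MLFD345 or Wt12MLFD326 in turn, 4, 3, 4 and 1 adipocyte genes rose, and 0, 0, 5 and 0 of the tubule markers fell. In the lists of the thick ascending limb and of fibroblasts and stroma 3 of 8 genes fell in each, with sums of 2870 to 3152 CPM in Pt-CrAT and 2631 to 4019 CPM in fl/fl for the thick limb and of 55.1 to 78.2 CPM in Pt-CrAT and 64.7 to 115 CPM in fl/fl for stroma. The part of GC content and of these cell types in the 9 calls was not tested beyond the values given.

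At 15 months, 0 of the 37 genes passed between the labelled genotypes, as did 0% of all genes tested. In edgeR 4 of the 37 had an unadjusted p under 0.05 (10.8%), against 8.29% of all genes, and DESeq2 and limma-voom called 0 of the 37. The 4 were Pdhx (log2 fold change -0.39), Sdhc (-1.04), Pdk4 (1.34) and Dlst (-0.42), each at an adjusted p of 0.581. Sdhc stood at 218, 98.8 and 167.7 CPM in libraries labelled Pt-CrAT and at 264, 288 and 445 CPM in those labelled fl/fl, without overlap. Pdk4, the kinase induced by fasting in many tissues, stood at 1.28, 0.637 and 0.161 CPM in libraries labelled Pt-CrAT and at 0.306, 0.206 and 0.307 CPM in those labelled fl/fl. Its groups overlap, since CrAT15Mchow204 lay below every library labelled fl/fl. Lower values without overlap were found for 13 of the 37 genes, against 12.7% of all, and higher values without overlap for 5, against 11.6%. Directions here follow the labels, and Crat went the other way in the same 6 libraries.

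All 8 genes that fell at 12 months had lower values in the 15-month libraries labelled Pt-CrAT, where none passed. Of all 37 genes, 24 had lower values there. For 5 of the 8 (Idh1, Dld, Fh1, Dlat and Slc33a1) the groups did not overlap. Lower values without overlap were found for 13 of the 37 (35.1%) and for 12.7% of all genes. Cs and Idh3a stood at -0.03 each on the log2 scale. The values of 3 of the 5 follow, chosen after they were seen. Idh1 stood at 377, 284 and 323 CPM in those libraries and at 537, 444 and 517 CPM in those labelled fl/fl (log2 fold change -0.61, SE 0.34, adjusted p = 0.581). Slc33a1 stood at 44.0, 25.4 and 32.7 CPM in libraries labelled Pt-CrAT and at 87.8, 51.3 and 73.2 CPM in those labelled fl/fl (log2 fold change -1.06, SE 0.60, adjusted p = 0.581). Fh1 stood at 50.1, 21.6 and 56.5 CPM in libraries labelled Pt-CrAT and at 82.2, 60.2 and 73.5 CPM in those labelled fl/fl (log2 fold change -0.75, SE 0.55, adjusted p = 0.623). At 24 months the same 3 genes had higher values in Pt-CrAT, at 0.51, 0.40 and 0.43 on the log2 scale, again without passing (adjusted p = 0.543, 0.78 and 0.742). Of the other 5, Idh3a stood at 0.07 and Cs, Dld, Dlat and Pdhb at -0.02 to -0.03.

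At 24 months, with 5 libraries a group, 0 of the 37 genes passed, as did 0% of all genes tested. In edgeR 6 of the 37 had an unadjusted p under 0.05 (16.2%), against 9.35% of all genes, and DESeq2 and limma-voom called 0 of the 37. The median log2 fold change was -0.11, with 28 lower and 9 higher values, against 0.02 over all genes tested. Lower values without overlap were found for 1 gene, Slc25a1, against 0.797% of all genes, and higher values without overlap for 0, against 0.737%.

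The smallest p at 24 months belonged to genes of pyruvate control and malate handling. Pdk3, a kinase that switches pyruvate dehydrogenase off (ENSMUSG00000035232; chromosome X, 93764607 to 93832201), stood at 30.3, 50.4, 63.4, 29.8 and 59.1 CPM in Pt-CrAT and at 72.4, 65.5, 59.7, 79.0 and 82.2 CPM in fl/fl (log2 fold change -0.62, SE 0.17, adjusted p = 0.38). Its groups overlap in 1 library of each, and the 2 lowest values were those of CrAT24Mchow123 and CrAT24Mchow136, the libraries low in Kap. Mdh2, the mitochondrial malate dehydrogenase (ENSMUSG00000019179; chromosome 5, 135778480 to 135790398), stood at 840, 924, 1083, 845 and 1140.0 CPM in Pt-CrAT and at 1131, 1443, 1342, 1467 and 1174 CPM in fl/fl (log2 fold change -0.44, SE 0.12, adjusted p = 0.38). Slc25a1, the citrate carrier (ENSMUSG00000003528; chromosome 16, 17925223 to 17928219), stood at 68.9, 68.3, 68.6, 39.8 and 67.5 CPM in Pt-CrAT and at 76.6, 104, 77.0, 82.8 and 76.6 CPM in fl/fl (log2 fold change -0.41, SE 0.14, adjusted p = 0.461). Every Pt-CrAT library lay below every fl/fl library for Slc25a1, and all but 1 did so for Mdh2. Pcx stood at -0.47 (SE 0.18), Idh3g at -0.30 (SE 0.13) and Pdk1 at 0.42 (SE 0.20) on the log2 scale, and Pdk1 was at 24.4 CPM in CrAT24Mchow136, against 8.96 to 12.7 CPM in the other Pt-CrAT libraries and 9.64 to 11.6 CPM in fl/fl.

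The next comparison set 24 against 15 months within Pt-CrAT. Here 6 of the 37 genes fell and 0 rose, where 11.3% of all genes passed, 5.71% lower and 5.61% higher. They were the malate dehydrogenases Mdh1 and Mdh2, the kinase Pdk3, the pyruvate carrier subunit Mpc1, the citrate carrier Slc25a1 and the mitochondrial acetyl-CoA synthetase Acss1. The median log2 fold change of the 37 was -0.25, with 28 lower and 9 higher values, against 0.04 over all genes. Lower values without overlap were found for 14 genes, against 11.3% of all, and higher values without overlap for 0, against 10.5%. Crat fell in the same comparison (log2 fold change -0.93, SE 0.24, adjusted p = 0.0165), and the direction is drawn from 15-month libraries whose Crat level ran against their labels.

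Pdk3 had the smallest p of the 6. It stood at 30.3, 50.4, 63.4, 29.8 and 59.1 CPM at 24 months and at 92.0, 91.2 and 90.5 CPM at 15 months (log2 fold change -0.97, SE 0.19, adjusted p = 0.00317). The 15-month libraries labelled Pt-CrAT lay within 2 CPM of each other and well above all 24-month libraries. Mdh2 stood at 840, 924, 1083, 845 and 1140.0 CPM at 24 months and at 1314, 1505 and 1431 CPM at 15 months (log2 fold change -0.55, SE 0.14, adjusted p = 0.012). Mdh1, the cytosolic enzyme of the malate shuttle (ENSMUSG00000020321; chromosome 11, 21556787 to 21572367), stood at 692, 905, 972, 688 and 1071 CPM at 24 months and at 1236, 1554 and 1339 CPM at 15 months (log2 fold change -0.67, SE 0.17, adjusted p = 0.0126). Neither malate dehydrogenase overlapped between the ages.

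Mpc1 (ENSMUSG00000023861; chromosome 17, 8282904 to 8297661) stood at 28.0, 42.9, 43.0, 22.8 and 52.1 CPM at 24 months and at 53.7, 81.1 and 64.5 CPM at 15 months (log2 fold change -0.82, SE 0.22, adjusted p = 0.0179). Slc25a1 stood at 68.9, 68.3, 68.6, 39.8 and 67.5 CPM at 24 months and at 86.0, 102 and 88.3 CPM at 15 months (log2 fold change -0.56, SE 0.16, adjusted p = 0.0242). Both were separate between the ages, and both had their lowest value in CrAT24Mchow136. Acss1 (ENSMUSG00000027452; chromosome 2, 150618105 to 150668500) stood at 114, 98.7, 111, 182.6 and 119 CPM at 24 months and at 195, 186 and 174 CPM at 15 months (log2 fold change -0.56, SE 0.18, adjusted p = 0.0459). Its ages overlap through CrAT24Mchow136, the highest of the 24-month libraries. Mpc2, the partner of Mpc1 in the carrier, stood at -0.15 and did not pass. The last 500 bases of Mpc1 overlap a gene annotated on the opposite strand.

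**Figure D4:**
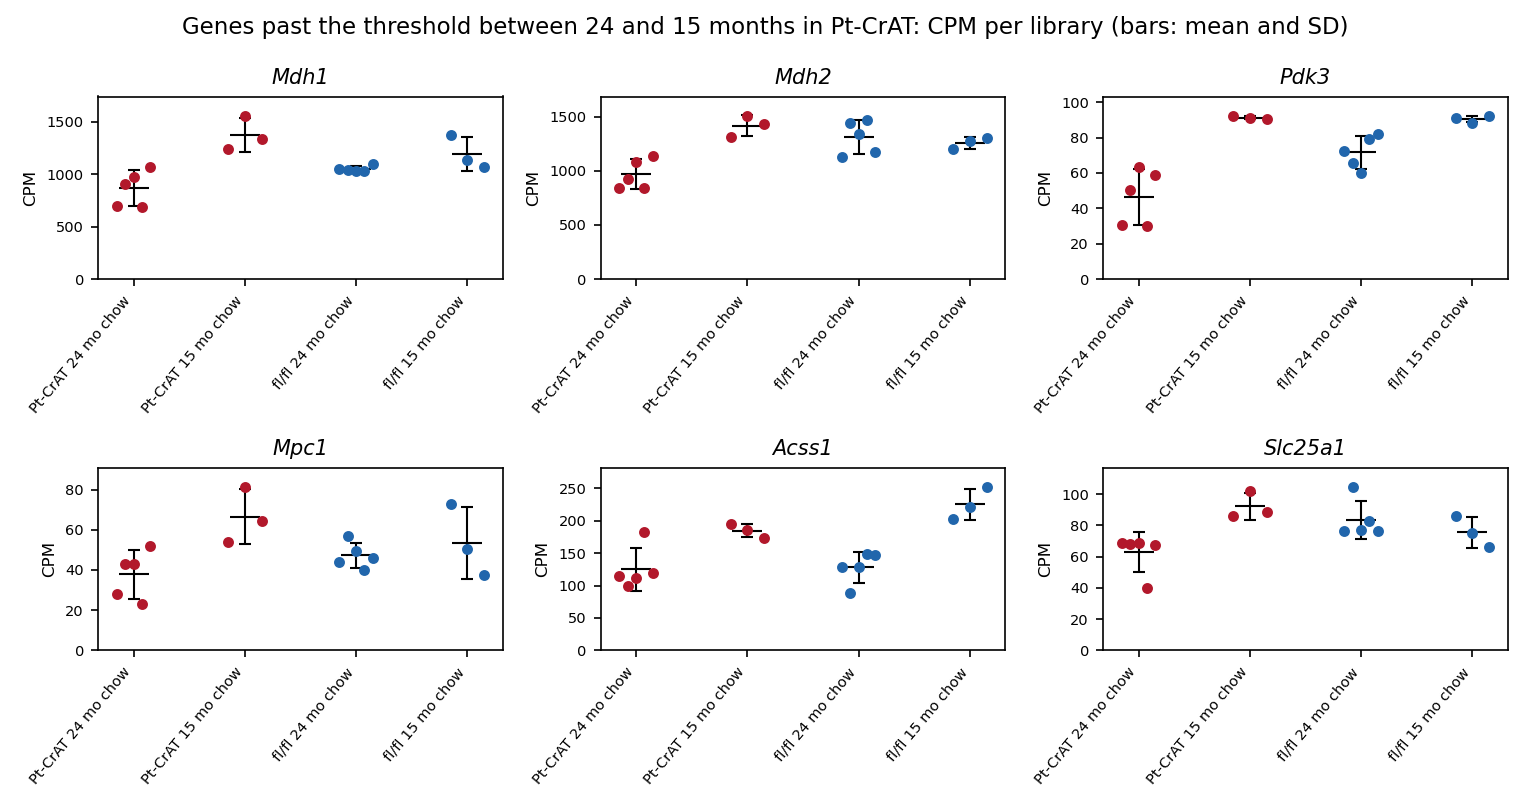
CPM (vertical axis, from 0) of the 6 genes that fell between 24 and 15 months in Pt-CrAT, in the 24- and 15-month libraries of each labelled genotype, with Pt-CrAT in red and fl/fl in blue; black bars give the mean and SD. In Pt-CrAT the ages are separate for all but Acss1, and in fl/fl they are separate for Pdk3 and Acss1.

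These calls depended on the 15-month libraries. Without CrAT15Mchow185 or without CrAT15Mchow204 only Pdk3 passed (adjusted p = 0.0245 and 0.026), and the other 5 genes then ran from 0.0797 to 0.149 and from 0.0595 to 0.119. Acss1 kept its call when CrAT24Mchow136 was left out (adjusted p = 0.00937) and lost it without any other single library (0.0805 to 0.148). Without CrAT24Mchow123 and CrAT24Mchow136 together, a choice made with the data in view, Pdk3 (log2 fold change -0.67, adjusted p = 0.0143) and Acss1 (-0.76, adjusted p = 0.0239) passed and the other 4 did not (0.0976 to 0.129).

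Markers of the tubule moved with the same ages. Of 16 markers of proximal tubule S1 and S2, 9 fell, and their summed level was 11630 to 16690 CPM at 24 months against 22300 to 25400 CPM at 15 months in Pt-CrAT. Of 8 genes of the thin limb, medulla and urothelium, 7 rose, with sums of 129 to 256 CPM at 24 months and 42.5 to 128 CPM at 15 months. Without CrAT24Mchow123 and CrAT24Mchow136 together, 6 tubule markers fell and 3 genes of the thin limb list rose, and without CrAT15Mchow185 or without CrAT15Mchow204 these counts were 6 and 4. No gene of either list was at 0 in every library. Of 7 genes of the distal convoluted and connecting tubule 3 fell, with sums of 696 to 1317 CPM at 24 months and 1567 to 1687 CPM at 15 months, and of 8 genes of fibroblasts and stroma 3 rose and all 8 had higher values, with sums of 138 to 171 CPM at 24 months and 73 to 110 CPM at 15 months. GC content moved as well: the median log2 fold change was 0.13 in the bin of lowest GC and -0.11 in that of highest GC, with 3.27% and 11.3% of their genes called lower. With a GC term fitted in each library the 6 genes all passed. The part of these cell types in the 6 calls was not tested.

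In fl/fl, 1 of the 37 genes passed between 24 and 15 months, where 1.3% of all genes passed, 0.478% lower. It was Acss1, at 128, 88.2, 129, 148 and 147 CPM at 24 months and 203.5, 221 and 252 CPM at 15 months (log2 fold change -0.82, SE 0.18, adjusted p = 0.0265). The ages did not overlap. The call was lost without any of the 15-month libraries, and without Wt24Mchow154, Wt24Mchow164 or Wt24Mchow165 (adjusted p = 0.0502 to 0.185). Lower values without overlap were found for 15 genes, against 8.26% of all, and higher values without overlap for 0, against 8.7%. An unadjusted p under 0.05 was found for 14 genes (37.8%), against 21.7% of all genes. The smallest adjusted p after that of Acss1 belonged to Dlst (-0.58, adjusted p = 0.0825), Pdk1 (-0.74, 0.0832), Idh3b (-0.57, 0.0948) and Sdhc (-1.24, 0.0981). Pdk3 stood at -0.34 (SE 0.19) and Mdh2 at 0.06 (SE 0.14) in fl/fl, beside -0.97 and -0.55 in Pt-CrAT. Of the 16 proximal tubule S1 and S2 markers 1 fell and 14 had lower values (median log2 fold change -0.47), with sums of 16030 to 19480 CPM at 24 months and 19830 to 22910 CPM at 15 months, which do not overlap. Of 7 genes of the distal convoluted and connecting tubule 2 fell, with sums of 875 to 1330 CPM at 24 months and 1708 to 2410 CPM at 15 months. Their part in the values of the 37 genes was not tested. Here too the 15-month libraries are called by their labels.

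Whether the genotype difference itself changed between 15 and 24 months was tested as an interaction. None of the 37 genes passed in edgeR, as did 0% of all genes, with 10 of the 37 (27%) at an unadjusted p under 0.05, against 15% of all genes, and 0 of the 37 in DESeq2 and limma-voom. The lowest adjusted p among the 37 was 0.29, shared by Mdh2 (-0.61, SE 0.19), Slc25a1 (-0.70, SE 0.22), Pcx (-0.82, SE 0.29) and Pdk1 (0.87, SE 0.33). A test with 2 degrees of freedom of whether the genotype difference varied among the 3 settings called 4 of the 37, where 5.07% of all genes passed. These were Idh1 and Mdh2 (adjusted p = 0.0381 each), Pcx (0.0479) and Slc25a1 (0.0498). In the order 12, 15 and 24 months the genotype difference of Mdh2 was 0.32, 0.17 and -0.44 on the log2 scale, that of Pcx 0.61, 0.35 and -0.47, that of Slc25a1 0.35, 0.29 and -0.41, and that of Idh1 -1.31, -0.61 and 0.51. For the first 3 genes values were higher in Pt-CrAT at 12 and 15 months and lower at 24 months, and for Idh1 the reverse, with the 15-month direction drawn from the labels. GC content moved in the same way: across all genes with a value Spearman's rho between GC content of the last 500 bases and the genotype difference was 0.29, 0.15 and -0.21 in the same order, a description with no test, and these bases hold 57.8% GC in Slc25a1, 55.4% in Pcx, 48.8% in Mdh2 and 39.4% in Idh1. With a GC term fitted in each library Idh1 (adjusted p = 0.0381) and Mdh2 (0.0433) passed and Pcx (0.137) and Slc25a1 (0.145) did not. Adipocyte markers changed direction too, with a median genotype difference of 3.42, 0.76 and -1.32 in the same order. Of these 9 markers 5 passed the test with 2 degrees of freedom, as did 2 of the 16 proximal tubule S1 and S2 markers. Crat also passed it (adjusted p = 0.0319), at -0.33, 0.61 and -1.04. The part of these in the 4 calls was not tested. Age and the LFD label cannot be told apart in this test. The count of the 37 was 0 without any of 10 single libraries, among them CrAT12MLFD328, CrAT12MLFD337 and CrAT24Mchow124, and 11 without CrAT12MLFD345. Over all genes 764 passed in the main fit, and 2 to 2195 did with 1 of the 22 libraries left out. These comparisons share libraries with those above, so they are not independent of them.

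Pcx illustrates the level over the 3 settings. It stood at 675, 588 and 458 CPM in Pt-CrAT and 490, 355 and 283 CPM in fl/fl at 12 months, with overlap through CrAT12MLFD345. At 15 months it stood at 419, 539 and 476 CPM in libraries labelled Pt-CrAT and 382, 405 and 335 CPM in those labelled fl/fl. At 24 months it stood at 340, 335, 374, 296 and 382 CPM in Pt-CrAT and 329, 722, 503, 475 and 358 CPM in fl/fl, where Wt24Mchow154 was the highest. The 15-month groups were separate and the others were not.

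The 37 genes differed widely in how much they varied between libraries of a group. The median SD within groups on the log2 scale was 0.23 for the 37 and 0.31 for all genes tested. The tightest was Sdha at 0.0931, the flavoprotein of succinate dehydrogenase. The widest were Sdhd at 0.85, Slc33a1 at 0.76, Fh1 at 0.75, Suclg2 at 0.74, Pdk4 and Sdhc at 0.61 and Idh1 at 0.47. Apart from Pdk4, which had under 1.5 CPM throughout, these genes shared their extreme libraries. Sdhd, Slc33a1, Fh1, Suclg2, Sdhc and Idh1 each had their highest value of all 22 libraries in Wt12MLFD326 and their lowest 24-month value in Wt24Mchow154. Among the 24-month fl/fl libraries, all of 1 genotype, Fh1 stood at 57.4, 9.80, 31.1, 25.5 and 36.2 CPM and Sdhc at 245, 59.4, 132, 96.5 and 167.8 CPM. In these 5 libraries Wt24Mchow145 was the highest and Wt24Mchow154 the lowest for both.

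**Figure D5:**
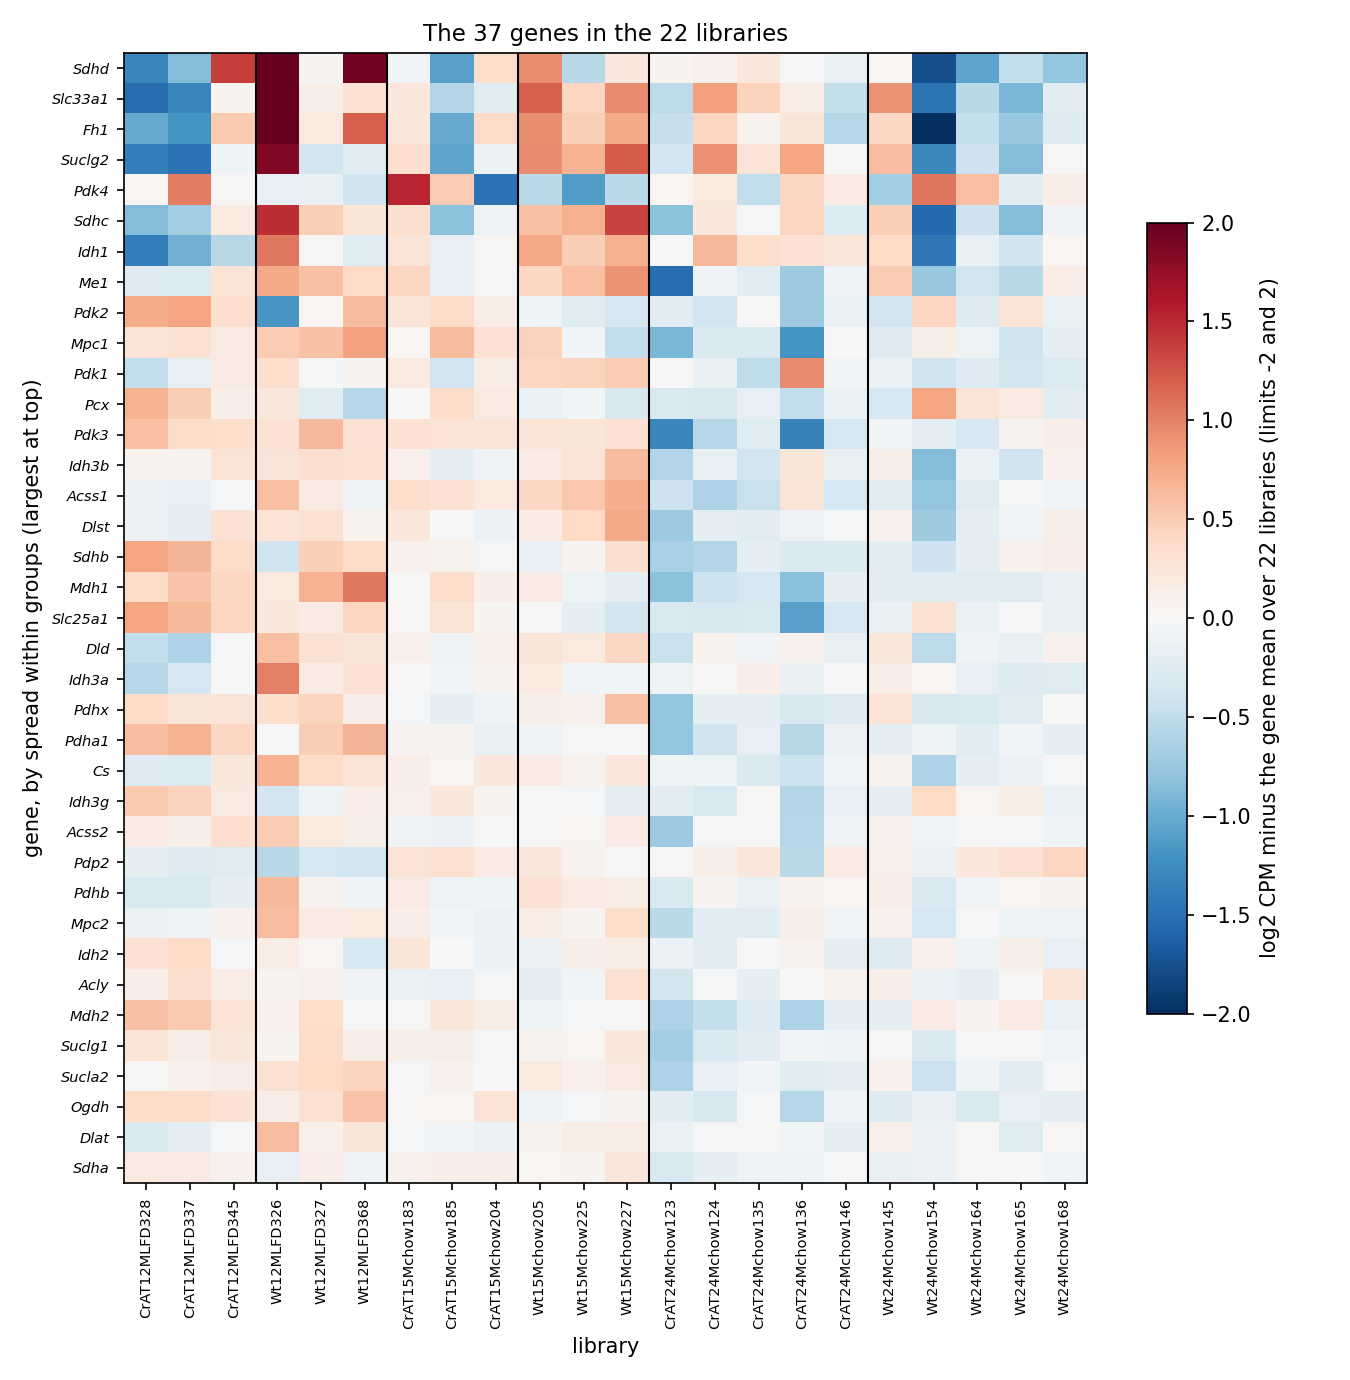
Log2 CPM of each of the 37 genes (rows, from the widest spread within groups at the top to the tightest at the bottom) minus its mean over the 22 libraries (columns, groups divided by black lines, Pt-CrAT left of fl/fl at each age); red is above and blue below the mean, with colours limited to -2 and 2. In the top 7 rows Wt12MLFD326 is red and Wt24Mchow154 blue except for Pdk4, and the bottom row, Sdha, is pale throughout.

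Other genes of the pathway were read from a second list, of which 33 were tested. At 12 months 2 rose and 5 fell, beside 8.41% higher and 7.95% lower over all genes. Those that rose were Pdpr, the regulatory subunit of the pyruvate dehydrogenase phosphatase (log2 fold change 1.02, SE 0.18), and Sdhaf1, an assembly factor of succinate dehydrogenase (0.55, SE 0.16). Among those that fell were Dhtkd1, a dehydrogenase of 2-oxoadipate (-0.83, SE 0.23), the monocarboxylate transporter Slc16a7 (-0.56, SE 0.17) and the cytosolic aspartate aminotransferase Got1 (-0.43, SE 0.12). Between 24 and 15 months in Pt-CrAT 4 fell and 0 rose: Slc25a13, the aspartate and glutamate carrier (-0.66, SE 0.16), the mitochondrial aspartate aminotransferase Got2 (-0.43, SE 0.14), the 2-oxoglutarate and malate carrier Slc25a11 (-0.39, SE 0.11) and the lactate dehydrogenase Ldhb (-0.38, SE 0.11). Their relatives Slc25a12 (-0.13) and Got1 (-0.11) did not pass there. None passed at 15 or 24 months between genotypes, nor between the ages in fl/fl. At 12 months 0 passed without CrAT12MLFD328, and 1 rose and 1 fell without CrAT12MLFD337 or without Wt12MLFD326. Between the ages in Pt-CrAT 0 passed without CrAT15Mchow185, without CrAT15Mchow204 or without CrAT24Mchow123 and CrAT24Mchow136 together, and 2 to 6 fell with another library left out.

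Of 21 genes that use acetyl-CoA or carry related molecules, 4 rose and 2 fell at 12 months, beside 8.41% higher and 7.95% lower over all genes, so the 2 that fell are near the share over all genes. Those that rose were the fatty acid synthase Fasn (0.82, SE 0.25), the peroxisomal thioesterase Acot8 (0.79, SE 0.16), the cytosolic thiolase Acat2 (0.65, SE 0.20) and Mecr of mitochondrial fatty acid synthesis (0.54, SE 0.18). Those that fell were the mitochondrial coenzyme A carrier Slc25a42 (-1.30, SE 0.35) and the mitochondrial thiolase Acat1 (-0.66, SE 0.21). Adipocytes express Fasn too, and as given above 7 of 9 of their markers rose at 12 months; its part was not tested. Between 24 and 15 months in Pt-CrAT 7 fell, beside 5.71% over all genes, among them the coenzyme A synthase Coasy (-0.76, SE 0.24), the malonyl-CoA decarboxylase Mlycd (-0.74, SE 0.14) and the ketone-using enzymes Bdh1 (-0.62, SE 0.19) and Oxct1 (-0.60, SE 0.19). In fl/fl 1 fell between the ages, Slc25a42 (-1.31, SE 0.31), beside 0.478% over all genes. At 12 months 0 of the 21 passed without CrAT12MLFD328, and 1, Acot8, rose without CrAT12MLFD337 or without Wt12MLFD326. Between the ages in Pt-CrAT, Mlycd alone passed without CrAT15Mchow185, without CrAT15Mchow204, without CrAT24Mchow123 or without CrAT24Mchow123 and CrAT24Mchow136 together, and 2 genes passed without CrAT24Mchow136 and 4 without CrAT15Mchow183. The call of Slc25a42 in fl/fl was lost without any of the 15-month libraries and without Wt24Mchow154, Wt24Mchow164 or Wt24Mchow165. These counts over the other lists were added with the data in view.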

How the data were processed

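Kidney cortex RNA was extracted with TRIzol and made into Lexogen QuantSeq 3′ FWD libraries, per the labels' protocols. The authors deposited raw read counts per gene, and all tests start from these. They also deposited a normalized signal, the counts divided by DESeq2 size factors, used here for gene symbols and a check of the size factors. The build was GRCm38, and the submitters' processing notes name R 3.4.3 and DESeq2 1.18.1. Aligner, counter, strand setting and annotation release: not given in the sources used here. Genes that overlap another gene or have a near-identical copy are uncertain for that reason. No gene had fewer than 66 reads over the 22 libraries, so rarer genes are not seen.

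edgeR 4.0.16 in R 4.3.3 fitted all 22 libraries in 1 model of 6 groups (TMM scaling, filterByExpr, robust quasi-likelihood F test, 16 residual degrees of freedom), with Benjamini-Hochberg adjustment over the 15064 genes tested and a threshold of 0.05. There were 7 contrasts. CPM values are TMM-scaled, and SE is the log2 fold change divided by the square root of F. Total counts limit precision less than the spread between libraries (biological coefficient of variation 20.5%). Whether libraries come from separate litters or cages is not stated, so p-values measure the spread between these libraries. Coordinates and transcript ends come from GENCODE M21, in which 16514 of the 16556 identifiers were found. The members and gene lists were chosen with earlier results of these data known. Of the members, those past the threshold in a contrast, or up to 6 with the smallest p where fewer than 5 passed, were eligible to be given per library; Sdhd at 12 months, the 15-month values of Idh1, Slc33a1 and Fh1 where they did not pass, and the spread of Fh1 and Sdhc were chosen after their values were seen. From the other lists only some eligible genes are named, and 1 gene is not reported here. Alternatives were RLE scaling, no filter, DESeq2 1.42.0, limma-voom (limma 3.58.1) with and without library quality weights, fits of the compared groups alone, leaving out libraries and a GC offset per library. The script was tested on simulated data.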

Additional observations from a re-analysis of the deposited data

Results flagged for a closer look

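In 6 of 74 gene and group combinations at 24 months 1 library stood far from the other 4, where chance gives about 1 in 20. In Pt-CrAT this was CrAT24Mchow136, with Pdk1 at 24.4 CPM (others 8.96 to 12.7), Acss1 at 182.6 CPM (98.7 to 119) and Slc25a1 at 39.8 CPM (67.5 to 68.9). In fl/fl Wt24Mchow154 held Suclg1 at 481 CPM (others 567 to 584) and Slc25a1 at 104 CPM (76.6 to 82.8), and Wt24Mchow168 held Mdh1 at 1100.0 CPM (1032 to 1047). CrAT24Mchow136 is also the library with the least Kap (2853 CPM); the part of this in the values was not tested.

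The genotype difference varied among the 3 settings for Idh1 (adjusted p = 0.0381), Mdh2 (0.0381), Pcx (0.0479) and Slc25a1 (0.0498) in the edgeR test with 2 degrees of freedom. Over the alternatives the adjusted p ran from 0.00267 to 0.124 for Idh1, from 0.00376 to 0.123 for Mdh2, from 0.00519 to 0.137 for Pcx and from 0.00767 to 0.145 for Slc25a1. Adipocyte markers and Crat varied among the settings too, as given above, and their part was not tested.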

How the results depend on the processing

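Counts here are of the 37 genes past the threshold. At 12 months the 9 calls became 16 with library quality weights, 0 with only the compared groups in the fit and 0 without CrAT12MLFD328 and Wt12MLFD326 together, and ran from 0 to 13 with 1 library left out. The 6 calls between ages in Pt-CrAT became 11 with quality weights and 2 without CrAT24Mchow123 and CrAT24Mchow136 together (1 to 6 with 1 library left out). The 1 call between ages in fl/fl became 4 in DESeq2, 8 with quality weights and 2 with only the compared groups (0 to 6 with 1 library left out). The 4 calls among settings became 8 in DESeq2, 2 in limma-voom and 12 with quality weights (0 to 11 with 1 library left out). At 15 months, at 24 months and for the change between them the count was 0 under every alternative run. Calls over all genes moved as well when 1 library was left out. They ran from 53 to 3513 at 12 months, beside 2464 in the main fit. Between ages they ran from 393 to 1777 in Pt-CrAT (main fit 1705) and from 3 to 756 in fl/fl (main fit 196). Among settings they ran from 2 to 2195 (main fit 764). The 9 calls at 12 months lost in the smaller fit had fewer samples behind their spread; otherwise the cause was not tested. Of 802 single-gene values under an alternative, 634 kept their side of the threshold, 141 lost it, 27 gained it and 0 changed sign. These 802 include genes given as not passing in the main fit, which could not lose a call. All 141 losses fell on genes that passed there, so 634 of 802 is no measure of how stable the calls are. No paired analysis was possible because the groups share no replicate number. Groups of 3 limit what can be called, and genes under 1 CPM such as Pdk4 rest on few reads.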
